A study of Mus musculus with 2 samples.

Results

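The miR-181 family was read on 2 miRNA arrays of C3H10T1/2 cells, a line of mouse mesenchymal cells able to become bone, cartilage or fat. Cells had received either BMP7, a secreted bone morphogenetic protein, at 3.3 nM or vehicle over 3 days, and total RNA of each group was labelled with Cy3 and put on 1 array. The study asked which miRNAs differ with BMP7. In RNA of a whole culture, fewer cells holding a miRNA and less of it per cell cannot be told apart. Family members were taken by probe name: of 377 probes other than controls, 3 carry a miR-181 name, printed as miR_181a, miR_181b and miR_181c, each with a human prefix and each present as 4 spots. All 3 are among the 256 probes kept as mouse miRNAs, and a probe named miR-181d was not found. The authors' deposited table adds a row for miR-181a in a customized panel of 16 miRNAs. With 1 array per group no difference has a replicate check and no p-value is given. Errors are standard deviations over the 4 spots of a probe, so they say nothing of the spread between cultures, and precision is limited by having so few arrays.

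MicroRNAs are short RNAs that guide silencing complexes to messenger RNAs, mainly through the bases near their 5′ end, called the seed. The miR-181 family is best known from lymphoid cells, where miR-181a tunes the sensitivity of the T cell receptor and favours B cell development. In mouse muscle cells miR-181 rises as myoblasts differentiate. The sequences below, from RefSeq (build GRCm38.p6), show how little the members differ. Capitals mark the seed (bases 2 to 8 from the 5′ end).
mmu-miR-181a-5p: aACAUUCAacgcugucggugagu
mmu-miR-181b-5p: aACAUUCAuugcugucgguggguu
mmu-miR-181c-5p: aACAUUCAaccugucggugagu
mmu-miR-181d-5p: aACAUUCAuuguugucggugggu
mmu-miR-181a-1-3p: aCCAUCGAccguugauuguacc
The first 4 share the seed, and among 1679 mature mouse miRNA names in that table only these 4 carry it. MiR-181c is miR-181a with 1 base fewer. MiR-181b differs from miR-181a by the substitutions A9U, C10U and A21G (miR-181a base, position from its 5′ end, miR-181b base) and by 1 further base at the end. MiR-181d differs from miR-181b by C12U and by 1 base fewer. A probe for one member may therefore read another, which was not tested, and the probes' own sequences were not used here. The last sequence is the other strand of the miR-181a-1 hairpin. Its older name miR-213, which RefSeq lists as a synonym of Mir181a-1, is on the array, and it is given beside the family.

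Each pair of neighbouring genes makes 2 members. In GRCm38.p6, Mir181a-1 (chr1:137966455-137966541) and Mir181b-1 (chr1:137966639-137966718) lie 97 bases apart, and no other gene of the RefSeq table overlaps them. Mir181a-2 (chr2:38852735-38852810) and Mir181b-2 (chr2:38853830-38853918) lie 1019 bases apart within the span of Nr6a1, a nuclear receptor gene, and of its antisense gene Nr6a1os. Mir181d (chr8:84178716-84178787) and Mir181c (chr8:84178873-84178961) lie 85 bases apart. Since mature miR-181a and miR-181b each come from 2 genes, their probes cannot tell the chromosome 1 pair from the chromosome 2 pair.

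The Cy3 signal was low over its surroundings on both arrays. A spot passed when its Cy3 brightness lay over the local background by more than 2 standard deviations, taken over all local backgrounds of its array (948 scanner units with BMP7, 1152 with vehicle). Detection of a probe took 2 or more passing spots of its 4. Of the 64 probes with no mouse gene, 2 were detected with BMP7 and 6 with vehicle, so a detected probe need not hold its miRNA. The median local background was 4650 units with BMP7 and 3756 with vehicle, and the laser for Cy3 read 3.17 in the BMP7 scan and 2.45 in the vehicle scan. Of 7 miRNAs common in mesenchymal cells, 6 were detected with BMP7 and 7 with vehicle. Blood cell miRNAs gave 1 of 6 probes (miR-223) on each array, and 1 of 5 muscle probes (miR-499) was detected with BMP7 and 0 of 5 with vehicle. The epithelium list gave 0 of 5 with BMP7 and 1 of 5 (miR-141) with vehicle, and the neuron, endothelium and liver lists gave no detected probe. Over all 256 mouse probes the rule called 16.0% with BMP7 and 22.7% with vehicle. Lists with 1 detected probe of 5 or 6 lie near those shares and say nothing particular about their cell types.

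On the BMP7 array 0 of the 3 members were detected, where the rule called 16.0% of the 256 mouse probes, and on the vehicle array 1 of 3, where it called 22.7%. The detected member was miR-181b. Its Cy3 brightness was 5227, 5293, 6037 and 5038 intensity units in the 4 BMP7 spots, and 4715, 3665, 4462 and 4924 in the 4 vehicle spots. Every BMP7 spot was thus brighter than every vehicle spot before background was considered. Above the local background this turned in part: the excess was 649, 909, 1587 and -24.0 units with BMP7, against 2542, 1810, -132 and 817 units with vehicle. The vehicle excess was highest in the first 2 spots, which lie side by side.

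Those 2 vehicle spots, the ones that passed, did not stand out in brightness (4715 and 3665 units, against 4462 and 4924 in the other 2) but lay in dark surroundings. Their local backgrounds were 2173 and 1855 units, while the other 2 vehicle spots of miR-181b had 4594 and 4107 units, in the same block of the array. The vehicle array had 25 spots of 1728 with a local background under 2500 units. Of these, 22 lay in that block, in its rows 1 to 5, and the BMP7 array had 0. With the median background of each block (4839 units with BMP7 and 4269 with vehicle) in place of the local one, 1 miR-181b spot passed with BMP7 and 0 with vehicle, so miR-181b was then detected on neither. This alternative was chosen after the data had been seen.

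**Figure D1:**
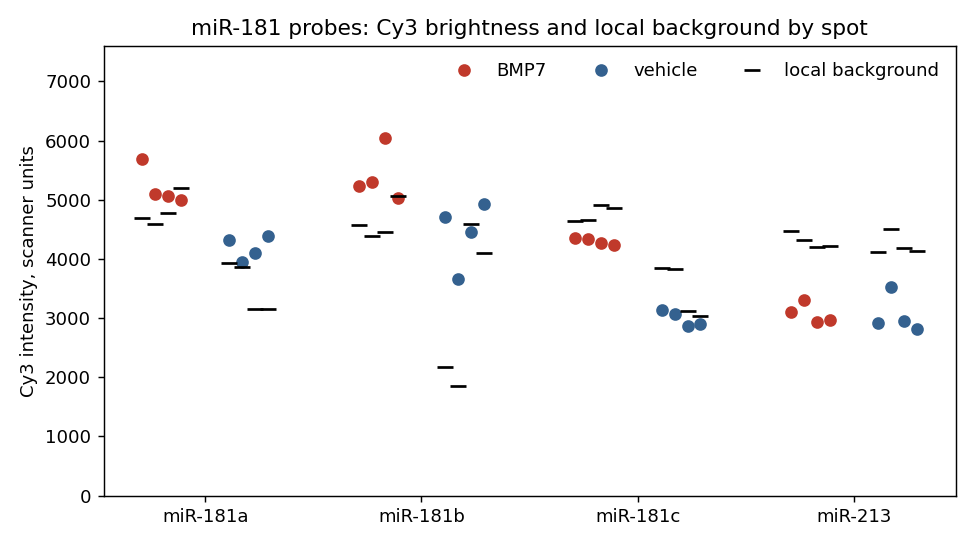
Cy3 brightness in scanner units (dots, 4 spots per probe and array, in order of spot) with the local background of each spot (black dashes) for the 3 miR-181 probes and miR-213. For miR-181b on the vehicle array the first 2 dashes lie at 2173 and 1855, below all other backgrounds shown, and all spots of miR-181c and miR-213 lie below their background.

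MiR-181a was not well above background on either array. It had 5689, 5091, 5065 and 5004 intensity units in the BMP7 spots and 4312, 3948, 4107 and 4386 in the vehicle spots. The excess over local background was 997, 495, 293 and -201 units with BMP7, against 381, 89.0, 950 and 1225 with vehicle. On each array 1 of the 4 spots passed, and the excesses of the arrays overlapped. MiR-181c lay below its surroundings in all 8 spots. Its brightness was 4362, 4345, 4266 and 4231 units with BMP7 and 3141, 3070, 2865 and 2906 units with vehicle. MiR-213 also lay below its surroundings in all 8 spots, at 3109, 3299, 2940 and 2975 units with BMP7 and 2922, 3521, 2955 and 2822 with vehicle. All 4 BMP7 spots were brighter than all 4 vehicle spots for each of the 3 family members, but not for miR-213. The same held for 32.0% of the 256 mouse probes, and the mean brightness of 191 of the 256 was higher on the BMP7 array. The log2 ratio of mean brightness, BMP7 over vehicle, was 0.32 for miR-181a, 0.28 for miR-181b, 0.52 for miR-181c and 0.01 for miR-213, beside a median of 0.15 over the 256.

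After normexp background correction and quantile normalization the spots of both arrays overlapped for every member, while 11.3% of the 256 mouse probes had every BMP7 spot on top. MiR-181b had a log2 level of 11.22 ± 0.44 with BMP7 and 11.09 ± 0.78 with vehicle. MiR-181a stood at 10.96 ± 0.39 with BMP7 and 10.82 ± 0.41 with vehicle. MiR-181c stood at 10.18 ± 0.24 with BMP7 and 9.50 ± 0.55 with vehicle (SD, n = 4 spots on each array throughout). Spots of miR-181c ran between 9.96 and 10.40 with BMP7 and between 8.98 and 10.07 with vehicle. No fold is given for any of them. MiR-181a and miR-181c were not detected on either array, and for miR-181b, which only the vehicle array detected, the vehicle level was not above the BMP7 level, so no lower bound on a decrease exists. Among the 65 mouse miRNAs detected on 1 or both arrays, 4.62% were higher with BMP7 by 2-fold or more in fitted level and 7.69% were lower by as much. MiR-181b, the member among them, was in neither group.

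The probes closest to each member in the plane of its 2 normalized levels were found over the 2 arrays only, as a description. For miR-181b these were miR-497 (at a distance of 0.058 on the log2 scale), miR-143 (0.10) and miR-93 (0.14). For miR-181a they were miR-15b (0.071), miR-292_5p (0.098) and miR-346 (0.17), and for miR-181c they were miR-199b (0.15), miR-187 (0.17) and miR-134 (0.19). MiR-497 and miR-143 had the detection pattern of miR-181b, on the vehicle array only, while miR-93 and miR-15b were detected on both arrays and the others on neither.

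The second channel of the same scans gave far more contrast, although no label or header states what it holds. Every spot of the family there was brighter than the brightest spot of the control named Control_1, as for 94.1% of the 256 mouse probes on both arrays. MiR-181a had 8586, 8668, 11345 and 10873 units with BMP7 and 9904, 10500, 12854 and 11573 with vehicle, over local backgrounds of 298 to 559 with BMP7 and 254 to 480 with vehicle. MiR-181b had 6569, 6918, 8411 and 8495 units with BMP7 and 8195, 8322, 9079 and 9911 with vehicle. MiR-181c had 4090, 4071, 4714 and 4622 units with BMP7 and 3334, 3650, 4554 and 4913 with vehicle. By mean brightness miR-181a and miR-181b were dimmer on the BMP7 array and miR-181c was brighter, where 182 of the 256 mouse probes (71.1%) were dimmer. The ranges overlapped for all 3 members. Spots 3 and 4 of each member were brighter than spots 1 and 2 on both arrays. After subtraction of the local background, the log2 ratio of means, BMP7 over vehicle, was -0.20 for miR-181a, -0.28 for miR-181b and 0.07 for miR-181c. MiR-213 had 3336, 2715, 2777 and 2983 units with BMP7 and 4742, 4263, 3964 and 4127 with vehicle. Its BMP7 spots were all below its vehicle spots, as for 36.7% of the 256 mouse probes. The log2 ratio of its net means was -0.57. Without background subtraction the log2 ratios were -0.18 for miR-181a, -0.22 for miR-181b, 0.09 for miR-181c and -0.53 for miR-213. The median over the 256 probes, also without subtraction, was -0.15 in this channel.

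**Figure D2:**
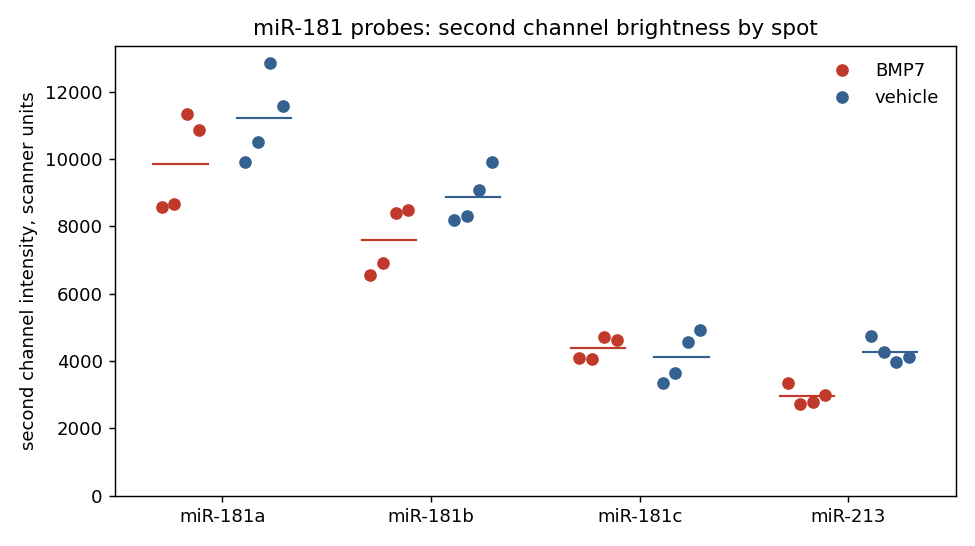
Second channel brightness in scanner units for the 3 miR-181 probes and miR-213, with 4 spots (dots) and their mean (line) on each array. The arrays overlap for all 3 family members, and spots 3 and 4 of each lie above spots 1 and 2 on both arrays. For miR-213 all BMP7 spots lie below all vehicle spots.

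The ratio in the authors' deposited table sets one channel against the other. Dividing Cy3 by second channel brightness in each spot, averaging the 4 spots and dividing by the same average for Control_1 gave the deposited value within 0.1% for 336 of 339 array rows with BMP7 and 337 of 339 with vehicle. In the authors' deposited table miR-181b had 0.0409 with BMP7 and 0.0245 with vehicle, a 1.67-fold higher ratio (log2 0.74). MiR-181c had 0.0564 with BMP7 and 0.0367 with vehicle in the authors' deposited table, which is 1.54-fold higher (log2 0.62). MiR-213 had 0.0599 with BMP7 and 0.0351 with vehicle in the authors' deposited table, 1.71-fold higher. Of the table's 339 array rows 92.6% were above 1 and 43.1% were 1.5-fold or more higher, as both members were, with a median of 1.46-fold. Values 2-fold or more higher made up 7.67% of the array rows and neither member was among them. Among these rows, 87 had a higher fold than miR-181b and 129 a higher fold than miR-181c.

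The parts of that ratio can be read off. For miR-181b the plain ratio of the channels was 0.718 with BMP7 and 0.501 with vehicle, a log2 difference of 0.52. Into it went the brighter Cy3 reading with BMP7 (log2 0.28) and the dimmer second channel reading (-0.22), which sum only roughly because the ratios were averaged by spot. Both readings are without background subtraction, and the local Cy3 backgrounds of the miR-181b spots averaged 4618.5 units with BMP7 and 3182 with vehicle. The remaining 0.22 of the deposited log2 value came from the Control_1 spots, whose own ratio was 17.5 with BMP7 and 20.5 with vehicle, and this amount is added to every array row alike. For miR-181c the plain log2 difference was 0.40, with a Cy3 part of 0.52 and a second channel part of 0.09 that acts against it. All its Cy3 spots lay below their local backgrounds, which averaged 4765 units with BMP7 and 3459 with vehicle. How much of either Cy3 part is background was not tested.

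MiR-181a has a probe on the array, but the table's array rows leave it out. Of the 256 mouse probes 5 are left out in this way (let-7e, miR-1, miR-133a, miR-181a and miR-206), and all 5 have a row in the customized panel. Rebuilt from the scans by the same formula, the array ratio of miR-181a was 0.0378, 0.0335, 0.0255 and 0.0263 in the BMP7 spots, against 0.0213, 0.0184, 0.0156 and 0.0185 in the vehicle spots. All BMP7 spots were higher than all vehicle spots, as for miR-181b, miR-181c, miR-213 and 66.0% of the 256 mouse probes. The means of 0.0308 with BMP7 and 0.0184 with vehicle stand 1.67-fold apart, a higher ratio with BMP7 (log2 0.74), next to that of miR-181b, and 91 of the 339 array rows had a higher fold.

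**Figure D3:**
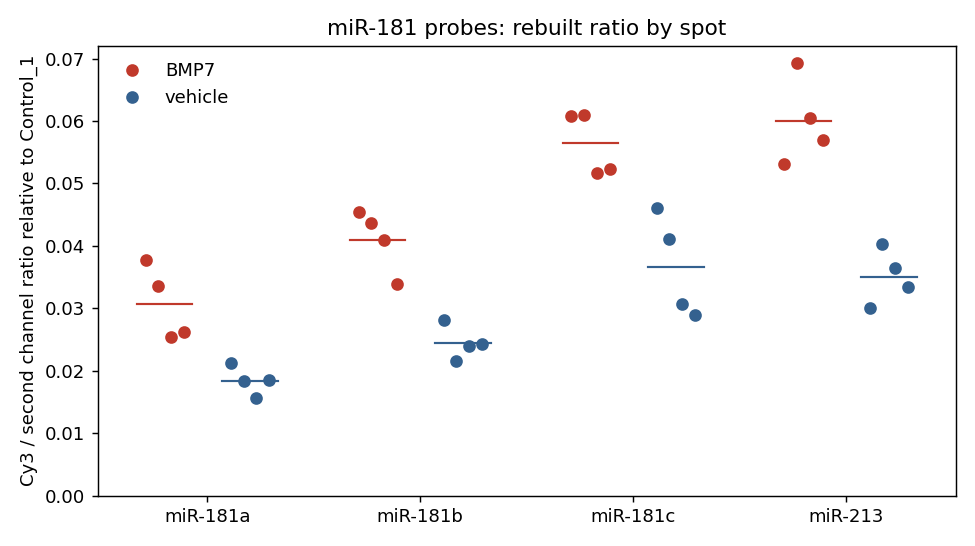
Rebuilt ratio of Cy3 to second channel brightness relative to the Control_1 spots (no unit), with 4 spots (dots) and their mean (line) on each array. For each of the 4 probes all BMP7 spots are higher than all vehicle spots.

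In the customized panel of the authors' deposited table the direction was opposite to that of the rebuilt array ratio. There miR-181a stood at 1.52e-07 with BMP7 and 4.22e-07 with vehicle, 2.77-fold lower with BMP7 (log2 -1.47), from 1 value per group without an error, in a unit that no label or header explains. Values 2-fold or more lower made up 37.5% of the panel's rows, and values 2-fold or more higher 12.5%. Of 9 panel miRNAs with a mouse probe on the array, 5 had lower panel values with BMP7 in the authors' deposited table. Of those 5, 4 had a higher rebuilt array ratio, and so had 3 of the 4 that were higher in the panel, beside 92.6% of all array rows. Taken against the array rows' median of 1.46-fold, the rebuilt miR-181a ratio also stayed above it. That ratio uses Cy3 without background subtraction. Over the local background the mean Cy3 excess of miR-181a was 396 ± 496 units with BMP7 and 661 ± 519 with vehicle (SD, n = 4 spots on each array). No median of this excess over the 256 mouse probes is given to set it against. More of those probes were detected with vehicle (22.7%) than with BMP7 (16.0%). The probe was detected on neither array, so the Cy3 channel gives no firm direction to set against the panel.

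**Figure D4:**
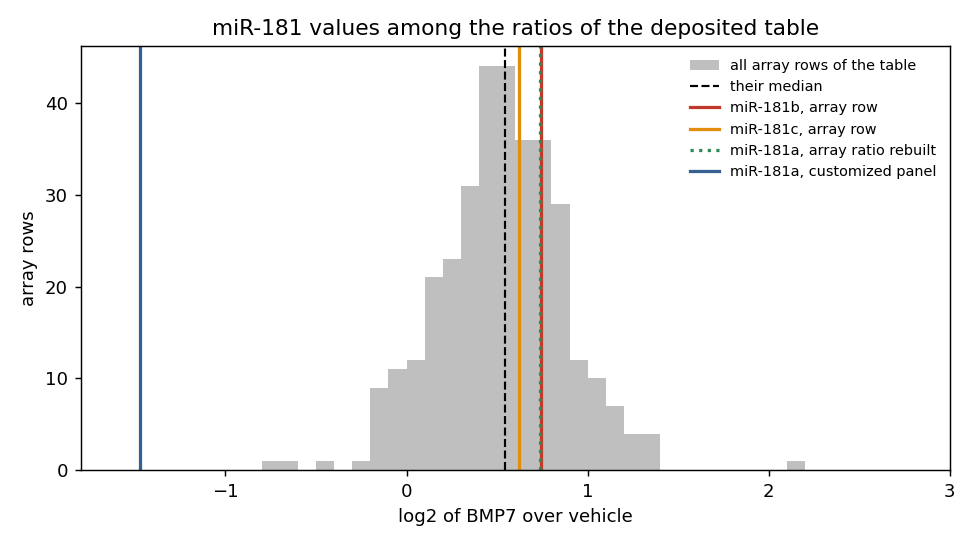
Log2 of BMP7 over vehicle for the 339 array rows of the authors' deposited table (grey histogram, number of rows per bin) with their median at 0.54 (dashed). Lines mark miR-181b (0.74), miR-181c (0.62), the rebuilt array ratio of miR-181a (0.74, dotted, on top of miR-181b) and the panel value of miR-181a (-1.47).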

How the data were processed

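The intensity columns of both channels are, per the file headers, mean spot brightness exported by GenePix Pro 5.1.0.19 without normalization or background subtraction. Per the labels' protocols, RNA was polyadenylated and labelled with Cy3. From the sum and ratio of background-subtracted means, a score that per the file headers combines both channels, the local backgrounds were solved for 1727 of 1728 spots on each array, and the other spot took its block's median. For the BMP7 group, the deposited table and the value matrix hold the same ratio in all 355 rows. This comparison did not cover the vehicle values. No label or header says how the authors made the ratio.

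The Cy3 intensity was corrected with normexp (offset 50, limma 3.58.1, R 4.3.3) on all spots, control spots were removed, arrays were quantile normalized, and log2 values of 4 spots were averaged. Further steps used pandas 2.3.3 and numpy 2.4.6 under Python 3.11.15. The steps were tested on simulated data in which bright probes were changed and both arrays had the vehicle array's local backgrounds. That setting does not cover probes near background, as here, or arrays of unlike background. Probes were kept when their name matches a mouse miRNA of the RefSeq table or has a mouse prefix, 1 per name. A planned detection rule used each array's background spread. No test across samples was made, because each group has 1 array. The naming rule took all miR-181 rows, miR-213 and the 3 probes nearest each member in level. Members and lists were chosen with earlier results of these data known.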

Additional observations from a re-analysis of the deposited data

Results flagged for a closer look

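The second channel, which is not the Cy3 measurement that the labels describe, held signal for every probe of the family. Each spot was brighter than the brightest Control_1 spot of its array, which was at 412 units with BMP7 and 319 with vehicle, as for 94.1% of the 256 mouse probes on both arrays. Mean brightness was 9868 with BMP7 and 11208 with vehicle for miR-181a, and 7598 with BMP7 and 8877 with vehicle for miR-181b. For miR-181c it was 4374 with BMP7 and 4113 with vehicle, and for miR-213 it was 2953 with BMP7 and 4274 with vehicle.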

How the results depend on the processing

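No paired analysis was possible because each group has 1 array. Detection of the members depended on the rule. On the BMP7 array, where 0 members were detected, 2 were (miR-181a and miR-181b) with at least 1 of 4 spots (27.0% of the 256 mouse probes), 2 with 1 standard deviation in place of 2 (26.2%), and 1 (miR-181b) above the 95th percentile of the 64 probes with no mouse gene (18.4%). On the vehicle array, where 1 was detected, the first 2 of these alternatives gave 2 (32.4% and 36.7% of the 256). At least 3 of 4 spots (14.8%) and the block median background (19.5%) each gave 0 there. The vehicle count stayed at 1 (miR-181b) with 3 standard deviations (14.5%) and above the 95th percentile (20.3%). The BMP7 count stayed at 0 with at least 3 of 4 spots (11.3%), 3 standard deviations (10.5%) and the block median background (15.2%). The log2 level of miR-181b, BMP7 minus vehicle, was 0.13 and ran between -0.38 (without spot 3) and 0.75 (block median background) over 15 alternatives, of which 13 kept its sign. With no normalization between arrays this difference was -0.011. For miR-181b and miR-181c the alternatives include the deposited ratio less its median, which draws on both channels and is not a Cy3 level. For miR-181a 12 of 14 kept the sign, and for miR-181c 14 of 15, with 0 by plain subtraction, where all its spots take the floor. Neither probe was detected on either array. The alternatives reuse the same spots, so these counts do not establish a direction. Less the median of all array rows, the deposited log2 ratio was 0.20 for miR-181b and 0.078 for miR-181c. The cause of these shifts was not tested. The low signal over background limits what can be said of the family in the Cy3 channel.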
